A study of Homo sapiens with 6 samples.

Results

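The genes described here encode collagen chains, the main structural proteins of the extracellular matrix, in MDA-MB-231 cells. Members were taken from a list of 37 collagen genes, and a probe set was used where the platform annotation gave it exactly 1 gene symbol from that list. In all, 36 of the 37 genes were measured by 98 of the 54613 probe sets tested, and these 36 stood among 19775 genes. COL17A1 was not analysed here. MDA-MB-231 is an established human breast cancer line of mesenchymal appearance. Both groups were this line, transfected either with an HS3ST2 expression plasmid or with a control vector, and 3 arrays were measured for each. HS3ST2 encodes an enzyme that adds sulfate to heparan sulfate, the sugar chains of cell surface and matrix proteoglycans. The sources used here do not give the time from transfection to RNA, or whether cells were selected or cloned. The RNA is from bulk cultures, so fewer cells that express a gene and less RNA per cell cannot be told apart.

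Collagen chains carry long runs in which glycine recurs at regular intervals, and chains wind around each other into a rope-like helix. Fibrillar collagens form the banded fibrils of connective tissue, collagen IV forms the sheet-like network of basement membranes, collagen VI forms beaded filaments around cells, and fibril-associated collagens decorate fibrils. Multiplexins are basement membrane collagens that carry glycosaminoglycan chains, and the transmembrane collagens sit in the cell surface. Some collagens need chains from different genes, so whether the partner genes of one type changed alike is a natural question of such data.

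The deposited values are on a log2 scale, and every probe set has a median of 0 across the 6 arrays. Differences between arrays can therefore be read, but not levels, so collagens cannot be ranked by abundance and the markers of the labelled cell type cannot be checked by level. With 6 arrays, this centring also places the middle pair of arrays at equal distances on either side of 0. The single HS3ST2 probe set was at -0.22, 0.17 and -0.11 in control arrays and 0.16, 0.04 and -0.04 in HS3ST2 arrays, so the groups overlapped. Its difference was 0.11 ± 0.10 log2 (SE, n = 3 per group; limma adjusted p = 0.523). The sources used here do not say whether it matches the plasmid's transcript, so it does not check the labels, and every direction rests on them. The median of 6 ribosomal RNA control probe sets was -0.20, -0.06 and -0.29 in control arrays and 0.02, 0.16 and 0.74 in HS3ST2 arrays (2-sided exact permutation p = 0.1, the lowest possible with these group sizes). The part of this signal in the collagen results was not tested. Without HS3ST2 replicate 3, where it was highest, 12 collagen genes were called, 4 higher and 8 lower. In HS3ST2 replicates 1 and 2 this signal still lay above every control array, so that fit does not separate it from the groups. Fibroblast markers other than collagens had 1 of 11 genes called, FBLN1 (0.26 ± 0.05, not called without the _x_at and _s_at probe sets, at 0.11), and the list's mean ranged from -0.02 to 0.02 in control arrays and from -0.01 to 0.02 in HS3ST2 arrays. Some epithelial markers moved with the groups. Of 12 luminal markers, 4 were higher and none lower (AGR2, ELF3, CDH1 and KRT18), where 11.5% of all genes were higher, and their mean ranged from -0.14 to -0.05 in control arrays and from 0.07 to 0.14 in HS3ST2 arrays. KRT18 lost its call without control replicate 2 or 3 or HS3ST2 replicate 1 or 2 (0.22 to 0.26). Of 6 basal markers, 3 were higher (CDH3, SFN and S100A2) and KRT15 was lower, with means from -0.27 to -0.21 and from 0.19 to 0.24. Most of that list's mean came from CDH3 (2.32), while the other 5 lay between -0.58 (KRT15) and 0.29 (S100A2). Of 7 leukocyte markers, ITGB2 was higher and LAPTM5 lower. Each of these marker lists is read against all genes, of which 24.5% were called, 11.5% higher and 13.0% lower. The part of these markers in the collagen results was not tested.

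Collagen genes moved in both directions, with more falls than rises. At a Benjamini-Hochberg adjusted p under 0.05 by limma, taken over all genes, 13 of the 36 genes were called (36.1%), against 24.5% of all 19775 genes. COL6A2, COL13A1, COL6A1 and COL4A2 rose. COL6A3, COL15A1, COL4A5, COL8A1, COL12A1, COL4A4, COL18A1, COL4A1 and COL5A1 fell. The share higher was 4 of 36, where 11.5% of all genes were higher, and the share lower was 9 of 36, where 13.0% were lower. The median difference over the 36 genes was -0.05 log2, against 0.01 over all genes. Called collagens differed by a median size of 0.36 log2, and all called genes by 0.345. A difference of at least 0.5 log2 was seen in 5 of the 36 collagens, against 5.88% of all genes. Only COL6A3 differed by more than 1 log2. The groups did not overlap for 19 of the 36, against 40.4% of all genes.

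**Figure D1:**
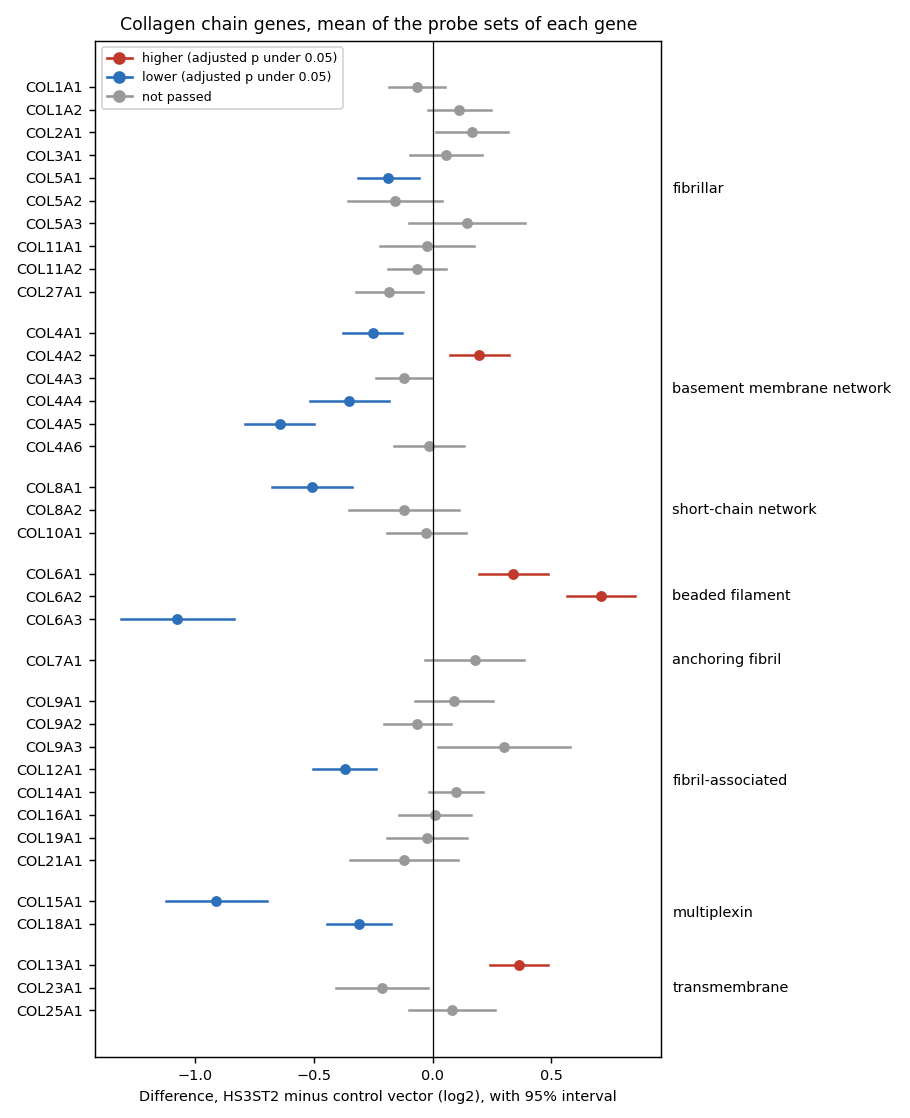
Differences between HS3ST2 and control vector arrays for the 36 collagen genes, in log2, with 95% intervals from limma (n = 3 per group), grouped by the kind of assembly. Red and blue points passed an adjusted p under 0.05. The widest span within a class is in the beaded filament chains, from 0.71 for COL6A2 to -1.08 for COL6A3.

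**Figure D2:**
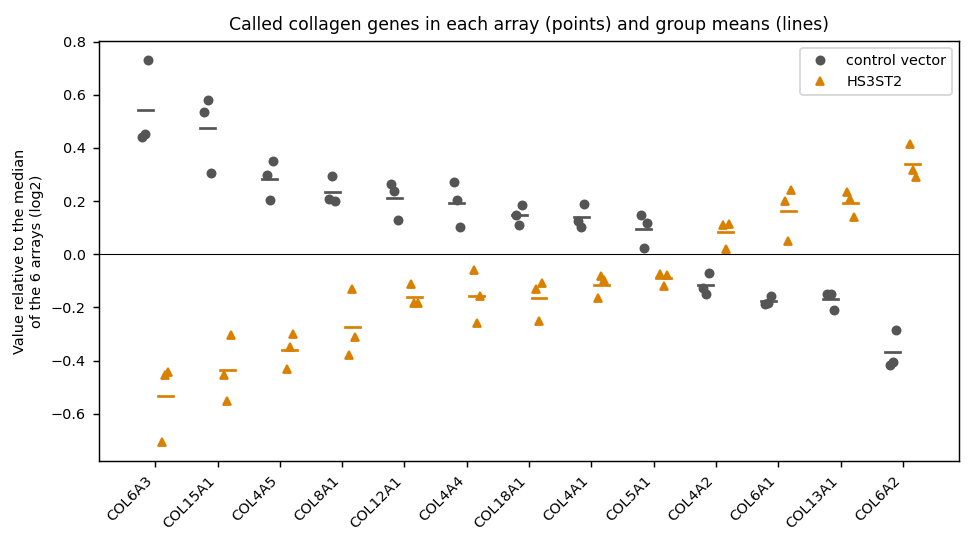
Values of the 13 called collagen genes in each array, in log2 relative to the median of the 6 arrays. Circles are control vector arrays, triangles are HS3ST2 arrays and short lines are group means, and the groups do not overlap for any of these genes.

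The chains of collagen VI went apart, and COL6A3 had the largest change of the 36 genes. Collagen VI is assembled from the products of COL6A1, COL6A2 and COL6A3, and its filaments link cells to the surrounding matrix. COL6A3, the largest chain, was at 0.44, 0.45 and 0.73 in control arrays and -0.71, -0.45 and -0.44 in HS3ST2 arrays. It fell by 1.08 ± 0.10 log2 (SE, adjusted p = 0.000248), a difference of 2.11-fold, measured by 1 probe set. COL6A2 was at -0.42, -0.41 and -0.29 in control arrays and 0.42, 0.32 and 0.29 in HS3ST2 arrays. It rose by 0.71 ± 0.06 (adjusted p = 0.000169), with both of its probe sets called, at 0.87 and 0.55. COL6A1, its neighbour in the genome, was at -0.19, -0.18 and -0.16 in control arrays and 0.20, 0.05 and 0.24 in HS3ST2 arrays. It rose by 0.34 ± 0.06 (adjusted p = 0.00564), but its 8 probe sets fell into separate sets. In 3 of them the change was 1.30, 0.70 and 0.63 log2, all called, and in the other 5 it lay between -0.08 and 0.10, with no call. All 3 called probe sets end in _s_at, a suffix that Affymetrix gives to sets that can match several transcripts. Another COL6A1 set with this suffix was not called (0.03), so the suffix does not separate the changed sets from the others. Without sets ending in _s_at or _x_at, COL6A1 was at 0.02 (adjusted p = 0.905).

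Within arrays, the change of COL6A2 exceeded that of COL6A3 by 1.79 ± 0.11 log2 (adjusted p = 2.92e-05), and that of COL6A1 exceeded COL6A3 by 1.42 ± 0.11 (adjusted p = 0.000107). Averaged over probe sets, COL6A1 rose less than COL6A2, by 0.37 ± 0.07 (adjusted p = 0.00642). With only the probe set of largest SD for each gene, this order turned (0.43, adjusted p = 0.00431), so no order of these 2 chains is given.

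COL6A2 lies on chromosome 21 and COL6A3 on chromosome 2, so the partner chains that went apart do not share a start region. The 250 bases before each start are shown to let these regions be compared. They come from RefSeq (GRCh38.p14), at chr21:46097862-46098111 on the plus strand for COL6A2 and chr2:237414165-237414414 on the minus strand for COL6A3. Capitals mark 3 motifs, each searched on both strands. These are the GC box (GGGCGG, or CCGCCC on the other strand), the CCAAT box (with ATTGG on the other strand) and the TATA box (TATAAA or TTTATA), and no marked motifs overlap.
COL6A2: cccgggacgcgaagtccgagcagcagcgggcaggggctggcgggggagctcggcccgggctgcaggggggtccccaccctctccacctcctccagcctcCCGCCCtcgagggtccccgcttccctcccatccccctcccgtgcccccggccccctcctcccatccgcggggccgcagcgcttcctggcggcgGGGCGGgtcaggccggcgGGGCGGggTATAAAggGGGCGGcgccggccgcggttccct
COL6A3: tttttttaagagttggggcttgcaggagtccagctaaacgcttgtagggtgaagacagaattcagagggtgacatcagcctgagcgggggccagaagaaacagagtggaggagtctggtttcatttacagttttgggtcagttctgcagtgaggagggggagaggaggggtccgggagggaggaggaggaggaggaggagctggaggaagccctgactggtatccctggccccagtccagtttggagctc
The COL6A2 stretch is 79.6% G or C and holds 4 GC boxes and 1 TATA box, while the COL6A3 stretch is 56.0% G or C and these letters are not in it. Among 34943 RefSeq start regions, 42.5% held a GC box and 10.8% a TATA box in the 250 bases before the start. In all, 28 of the 37 listed genes had an entry in this table, and 19 of them had a GC box in at least 1 entry. These genes had 39 entries, so this count per gene is not comparable with the 42.5% of single start regions.

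Collagen IV chains, which form the network of basement membranes, were called in 4 of 6 genes, 1 higher and 3 lower. Of all genes, 24.5% were called, 11.5% higher and 13.0% lower. The genes lie in head-to-head pairs, each transcribed away from its partner from starts close together. COL4A1 and COL4A2, whose products join in the collagen IV of most basement membranes, went opposite ways. COL4A1 was at 0.13, 0.10 and 0.19 in control arrays and -0.16, -0.08 and -0.10 in HS3ST2 arrays, and fell by 0.25 ± 0.05 log2 (SE, adjusted p = 0.0105). COL4A2 was at -0.13, -0.15 and -0.07 in control arrays and 0.11, 0.02 and 0.12 in HS3ST2 arrays, and rose by 0.20 ± 0.05 (adjusted p = 0.0329). Each has 2 probe sets, which agree in sign, at -0.28 and -0.23 for COL4A1 and 0.29 and 0.10 for COL4A2. The call of COL4A2 is marginal. It was lost when any 1 array other than HS3ST2 replicate 2 was left out (0.18 to 0.22, adjusted p = 0.0522 to 0.102). Both of its probe sets end in _at, so the setting without _s_at and _x_at sets left its difference at 0.20. The variance shared over genes and the adjustment were estimated anew in that setting (adjusted p = 0.0547). Singly, 1 set of each gene was called (-0.28 and 0.29). The COL4A1 set lost its call without any 1 array (-0.31 to -0.25), and the COL4A2 set without any 1 array other than control replicate 3 (0.23 to 0.30). The difference between the changes of both chains was -0.45 ± 0.06 (adjusted p = 0.00116), and kept its call without any 1 array (-0.50 to -0.41). With opposite signs, this difference is larger than either change by construction, so it does not strengthen the call of either chain alone.

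The starts of COL4A1 and COL4A2 are 127 bases apart in RefSeq. The 126 bases between them are shown because both genes, which moved in opposite directions, start from this stretch (GRCh38.p14, chr13:110307158-110307283, plus strand, which is the strand of COL4A2), with the same motifs in capitals.
COL4A1 and COL4A2: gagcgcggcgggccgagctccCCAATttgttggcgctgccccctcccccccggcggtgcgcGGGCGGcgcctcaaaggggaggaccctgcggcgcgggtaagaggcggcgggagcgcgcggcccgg
It holds 1 CCAAT box and 1 GC box, and no TATA box. In the 126 bases before a start, 34.5% of all RefSeq start regions held a GC box and 21.1% a CCAAT box.

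COL4A5 and COL4A6 lie head to head on the X chromosome, 380 bases apart, and also differed from each other. COL4A5, a chain of the basement membranes of kidney, skin and smooth muscle, was at 0.30, 0.21 and 0.35 in control arrays and -0.43, -0.35 and -0.30 in HS3ST2 arrays. It fell by 0.65 ± 0.06 log2 (SE, adjusted p = 0.000266). COL4A6, a chain that partners COL4A5 in some basement membranes, overlapped between groups and did not pass (-0.02 ± 0.06, 95% interval -0.16 to 0.13). The change of COL4A5 was lower than that of COL4A6 by 0.63 ± 0.06 (adjusted p = 0.000189). All of this rests on 1 of the 2 COL4A5 probe sets. That set, ending in _s_at, was at 0.60, 0.66 and 0.68 in control arrays and -0.78, -0.84 and -0.60 in HS3ST2 arrays, a fall of 1.39 ± 0.08 log2 (adjusted p = 7.81e-05). This was the largest change of any single collagen probe set. The other COL4A5 set did not pass (0.10), so without the _s_at and _x_at sets COL4A5 was at 0.10 (adjusted p = 0.554) and the contrast with COL4A6 was at 0.17 (adjusted p = 0.153). The 250 bases before the COL4A5 start, shown for comparison with the collagen IV stretch of chromosome 13, are at chrX:108439588-108439837 on the plus strand (RefSeq, GRCh38.p14).
COL4A5: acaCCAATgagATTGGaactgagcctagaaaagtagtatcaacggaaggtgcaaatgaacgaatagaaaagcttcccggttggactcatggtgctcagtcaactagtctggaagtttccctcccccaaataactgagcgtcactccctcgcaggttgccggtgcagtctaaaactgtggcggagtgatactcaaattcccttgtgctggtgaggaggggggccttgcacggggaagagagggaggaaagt
This stretch is 51.2% G or C against 80.2% between COL4A1 and COL4A2, and holds 2 CCAAT boxes and no GC box. Of all RefSeq start regions, 32.0% held a CCAAT box in 250 bases.

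COL4A3 and COL4A4, the partners of COL4A5 in the glomerular basement membrane of the kidney, lie head to head on chromosome 2, with starts 419 bases apart. COL4A4 was at 0.27, 0.20 and 0.10 in control arrays and -0.06, -0.26 and -0.16 in HS3ST2 arrays, and fell by 0.35 ± 0.07 log2 (SE, adjusted p = 0.00905). Of its 3 probe sets, 2 were called, at -0.65 and -0.43, and the other was at 0.03. The second of these lost its call without control replicate 1 or 2 or HS3ST2 replicate 2 or 3 (-0.43 to -0.35). COL4A3 did not pass as a gene (-0.12 ± 0.05, adjusted p = 0.126), although its groups did not overlap. One of its 7 probe sets fell by 0.87 ± 0.13 (adjusted p = 0.00355), with 0.62, 0.69 and 0.22 in control arrays and -0.22, -0.44 and -0.44 in HS3ST2 arrays, while the other 6 lay between -0.26 and 0.20. COL4A3 was called without the _s_at and _x_at sets (-0.24, adjusted p = 0.0193), and likewise when its most variable probe set stood for the gene (-0.87, adjusted p = 0.00265). The most variable set is chosen over all arrays, which favours sets that differ between groups. The changes of COL4A3 and COL4A4 were not shown to differ (0.23 ± 0.08, 95% interval 0.05 to 0.41, adjusted p = 0.0709), although they passed without control replicate 3 (0.29, adjusted p = 0.0446).

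Both multiplexins fell. Collagens XV and XVIII lie at basement membranes, and a fragment cut from the end of collagen XVIII is endostatin, an inhibitor of vessel growth. Collagen XVIII is also a heparan sulfate proteoglycan, and so a carrier of the sugar chain that HS3ST2 modifies. COL15A1, with 1 probe set, was at 0.54, 0.58 and 0.30 in control arrays and -0.45, -0.55 and -0.30 in HS3ST2 arrays. It fell by 0.91 ± 0.09 log2 (SE, adjusted p = 0.000327), a 1.88-fold difference and the largest after COL6A3. COL18A1 was at 0.15, 0.11 and 0.18 in control arrays and -0.13, -0.25 and -0.11 in HS3ST2 arrays, and fell by 0.31 ± 0.06 (adjusted p = 0.00645). Both of its probe sets were called lower, at -0.39 and -0.23, and both end in _s_at, so no value without such sets can be given. The call of the second set was lost without any 1 array (-0.26 to -0.20, adjusted p = 0.0788 to 0.144).

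Among the short-chain network collagens, COL8A1 fell. Collagen VIII forms hexagonal networks under endothelial cells and in the vessel wall. COL8A1 was at 0.21, 0.29 and 0.20 in control arrays and -0.38, -0.13 and -0.31 in HS3ST2 arrays, a fall of 0.51 ± 0.07 log2 (SE, adjusted p = 0.00178). Its called probe sets gave -0.80 and -0.58, and the remaining one gave -0.14. Its partner COL8A2 overlapped between groups and did not pass (-0.12 ± 0.10, interval -0.35 to 0.11). The test of the difference between these chains was at the threshold (-0.39 ± 0.12, adjusted p = 0.048). It was lost without control replicate 1 (-0.29), control replicate 2 (-0.41), HS3ST2 replicate 1 (-0.36) or HS3ST2 replicate 3 (-0.30), with adjusted p up to 0.138. COL10A1, a collagen of growth plate cartilage, did not pass (-0.03 ± 0.07).

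Of 8 fibril-associated collagens, COL12A1 fell and the other 7 did not pass, where 24.5% of all genes were called. Collagen XII binds the surface of collagen I fibrils. COL12A1 was at 0.27, 0.24 and 0.13 in control arrays and -0.11, -0.18 and -0.18 in HS3ST2 arrays, and fell by 0.37 ± 0.06 log2 (SE, adjusted p = 0.00258). All 5 of its probe sets were lower in sign, from -0.57 to -0.14, and 3 were called, of which the one at -0.31 lost its call without any 1 array other than control replicate 3 (-0.34 to -0.26). COL9A3, a chain of the collagen IX of cartilage, was at -0.10, -0.01 and 0.01 in control arrays and 0.40, 0.44 and -0.03 in HS3ST2 arrays. HS3ST2 replicate 3 was thus within the control range, and the gene did not pass (0.30 ± 0.12, adjusted p = 0.112), but it did without that array (0.45, adjusted p = 0.00388). COL9A2 did not pass (-0.07 ± 0.06), and the difference between the changes of COL9A2 and COL9A3 (-0.37 ± 0.10, adjusted p = 0.0342) was lost without any 1 array other than HS3ST2 replicate 3 (-0.29 to -0.39, adjusted p = 0.0661 to 0.103). COL14A1, which also binds fibrils, had groups that did not overlap, with -0.07 to -0.02 in control arrays and 0.03 to 0.08 in HS3ST2 arrays, but did not pass (0.10 ± 0.05, adjusted p = 0.206). COL9A1, COL16A1, COL19A1 and COL21A1 overlapped between groups and lay between -0.12 and 0.09.

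COL13A1, a transmembrane collagen found at cell adhesions and neuromuscular junctions, rose. It was at -0.15, -0.15 and -0.21 in control arrays and 0.24, 0.21 and 0.14 in HS3ST2 arrays, a rise of 0.36 ± 0.05 log2 (SE, adjusted p = 0.0019). Its 3 probe sets gave 0.52, 0.33 and 0.23, of which the first 2 were called, and all end in _s_at or _x_at. COL23A1 (-0.21 ± 0.08, adjusted p = 0.107) and COL25A1 (0.08 ± 0.08, adjusted p = 0.526), also transmembrane collagens, did not pass, although COL23A1 did without control replicate 2 (-0.29, adjusted p = 0.0416).

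The fibrillar collagens were the largest class, with 1 of 10 genes called, against 24.5% of all genes. COL5A1, a chain of the minor fibrillar collagen that starts fibrils and limits their width, was at 0.15, 0.02 and 0.12 in control arrays and -0.07, -0.12 and -0.08 in HS3ST2 arrays. It fell by 0.19 ± 0.06 log2 (SE, adjusted p = 0.0425), and this call was lost without any 1 array other than control replicate 2 (-0.16 to -0.19, adjusted p = 0.0869 to 0.121). One of its 3 probe sets was called, at -0.41, and the others were at -0.18 and 0.03. COL5A2 (-0.16 ± 0.09) did not pass, and its change did not differ detectably from that of COL5A1 (95% interval of the difference -0.20 to 0.14). COL1A1 and COL1A2, the chains of collagen I, were at -0.07 ± 0.05 (interval -0.18 to 0.05) and 0.11 ± 0.06 (interval -0.02 to 0.24), and COL3A1 was at 0.06 ± 0.07 (interval -0.09 to 0.21). A change of more than 0.25 log2 in either direction thus lay outside the interval of each of these 3 genes. Of the 5 COL1A1 probe sets, one fell by 0.36 ± 0.06 (adjusted p = 0.00656), from 0.24, 0.18 and 0.15 in control arrays to -0.17, -0.15 and -0.20 in HS3ST2 arrays, and the others ranged from -0.21 to 0.15. COL1A1 was therefore called with the probe set of largest SD (-0.36, adjusted p = 0.00614), where its change was also below that of COL1A2 (-0.61, adjusted p = 0.00955). That SD is taken over all arrays, which favours sets that differ between groups, so these calls are no separate evidence. With all probe sets the difference between COL1A1 and COL1A2 did not pass (-0.18 ± 0.07, adjusted p = 0.0899), and did without HS3ST2 replicate 1 (-0.23, adjusted p = 0.0435). COL27A1, a fibrillar collagen of cartilage, was at -0.18 ± 0.06 (adjusted p = 0.065), and 2 of its 5 probe sets were called lower. The first was at 0.11, 0.19 and 0.44 in control arrays and -0.41, -0.11 and -0.63 in HS3ST2 arrays (-0.62 ± 0.14), and the second at 0.12, 0.15 and 0.09 against -0.32, -0.09 and -0.34 (-0.37 ± 0.08). Neither set overlapped between groups, and another set was at 0.34 without a call. The first lost its call without control replicate 2 or 3 or HS3ST2 replicate 1 or 3 (-0.65 to -0.50), and the second without any 1 array other than HS3ST2 replicate 2 (-0.38 to -0.32). COL2A1, COL5A3, COL11A1 and COL11A2, most of them known from cartilage, lay between -0.06 and 0.17 and did not pass. COL7A1, which forms the anchoring fibrils below epithelia, did not pass either (0.18 ± 0.09, interval -0.03 to 0.39).

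**Figure D3:**
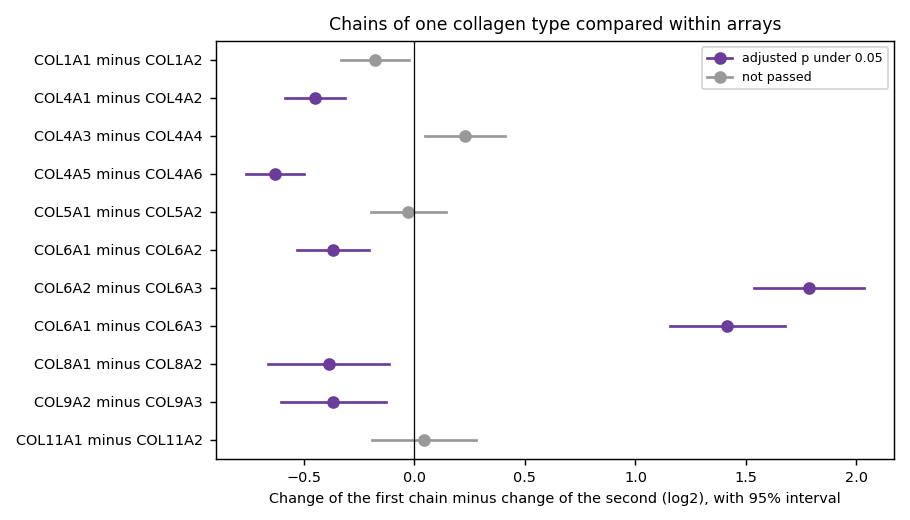
Change of one chain minus the change of another chain of the same collagen type, taken within arrays, in log2 with 95% intervals (n = 3 per group). Purple marks an adjusted p under 0.05, and the largest difference is that of COL6A2 and COL6A3, at 1.79.

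Singly, 26 of the 98 collagen probe sets were called (26.5%), 8 higher and 18 lower, against 16.9% of all 54613 probe sets, 7.9% higher and 8.98% lower. The 54613 include 11721 sets with no gene symbol and 1801 with several, while every collagen set has 1. These shares are therefore over unlike sets. No collagen gene had called probe sets in both directions. Of the 11 called genes with more than 1 probe set, all probe sets were called in 2, COL6A2 and COL18A1, and no longer in COL18A1 when any 1 array was left out. Of the 26 called sets, 19 kept their call without any 1 array, and 7 lost it without at least 1, in COL4A1, COL4A2, COL4A4, COL12A1, COL18A1 and COL27A1. In the other 9, called sets stood beside sets of the same gene with no call, as in COL6A1 and COL4A5. Another 3 genes, COL1A1, COL4A3 and COL27A1, had a called probe set but did not pass as genes. Whether the sets with little change lie near background or match other transcripts of the gene was not tested, since the centred values hold no levels and no probe positions.

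**Figure D4:**
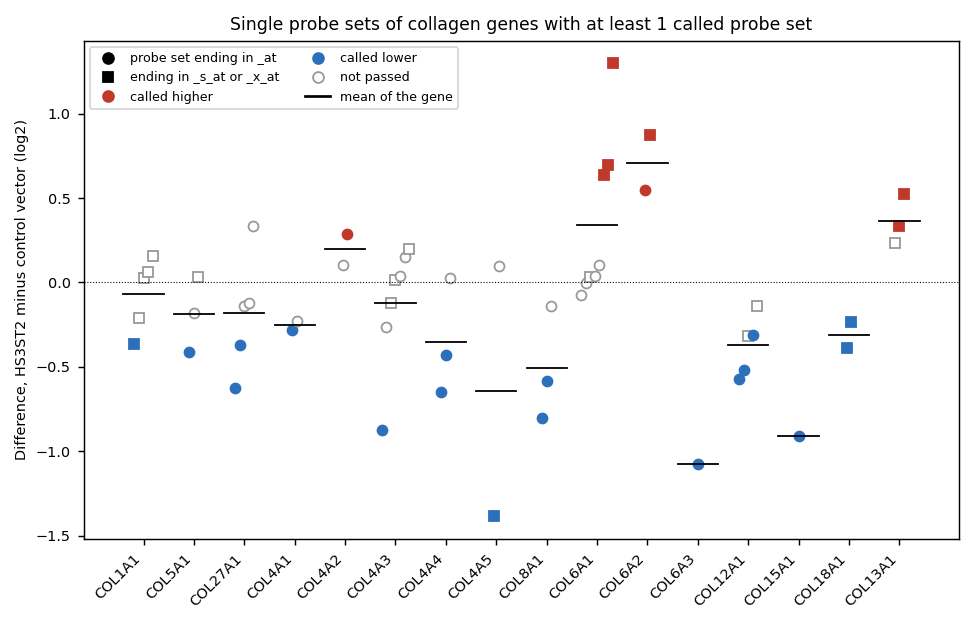
Differences of single probe sets, in log2, for the 16 collagen genes with at least 1 called set. Circles end in _at, squares end in _s_at or _x_at, filled symbols were called and black lines are the means used for the genes. COL6A1 and COL4A5 each hold sets far from 0 (1.30 and -1.39) beside sets close to 0.

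The nearest tested gene on each side of a called collagen, in RefSeq's order, was called in 6 of the 20 cases where it was not itself a collagen, against 24.5% of all genes. Beside COL8A1, CMSS1 fell (-0.53 ± 0.06, SE, adjusted p = 0.000661). Beside COL6A3, which fell, MLPH rose (0.32 ± 0.06, adjusted p = 0.00448), and beside COL6A1, which rose, PCBP3 fell (-0.31 ± 0.08, adjusted p = 0.0219). LINC00205 rose beside COL18A1 (0.29 ± 0.05), RXRA beside COL5A1 (0.20 ± 0.06) and COX7A2 beside COL12A1 (0.20 ± 0.06). The neighbours that did not pass lay between -0.19 (TGFBR1, beside COL15A1) and 0.27 (GALNT12, beside COL15A1). In wider windows of 10 neighbours, collagens included, 6 were higher and 0 lower around COL4A1, with a median of 0.24 log2. The overlapping window of COL4A2 had 4 higher and 1 lower, and that of COL8A1 had 4 lower and 0 higher. Windows of the other called collagens had at most 3 called in 1 direction. The part of these neighbourhoods in the collagen results was not tested.

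Genes that act on collagen were called in 21 of 83 measured cases (25.3%), 13 higher and 8 lower, against 24.5% of all genes. Of 13 collagen chaperones and export factors, 5 were called, all higher, and 8 did not pass, with a list median of 0.03 log2. The export factors MIA3 (-0.20) and MIA2 (-0.13) were among those that did not pass. FKBP10, a prolyl isomerase that acts as a collagen chaperone, was at -0.50, -0.29 and -0.31 in control arrays and 0.38, 0.29 and 0.31 in HS3ST2 arrays, and rose by 0.69 ± 0.07 log2 (SE, adjusted p = 0.000364). P3H4, a scaffold of the lysyl hydroxylation complex, was at -0.28, -0.24 and -0.49 in control arrays and 0.24, 0.36 and 0.35 in HS3ST2 arrays, and rose by 0.65 ± 0.08 (adjusted p = 0.000653). CREB3L1, a transcription factor of collagen secretion, rose by 0.24 ± 0.06, and SERPINH1, the collagen-specific chaperone HSP47, by 0.27 ± 0.07. PPIB, cyclophilin B, was the other gene called (0.32 ± 0.09, adjusted p = 0.0398), and lost its call without any 1 array other than control replicate 1 (0.23 to 0.34). SERPINH1 lost it without control replicate 1 or 2 or HS3ST2 replicate 1 or 2 (0.20 to 0.27), and CREB3L1 without control replicate 1 or 2 or HS3ST2 replicate 1 or 3 (0.21 to 0.25). The only probe set of SERPINH1 and both sets of PPIB were not called singly. With the probe set of largest SD, 4 genes of the list were called, but not CREB3L1 (0.19) or SERPINH1 (0.27). Of this list, 2 genes were called without control replicate 2 or HS3ST2 replicate 1, and 3 without HS3ST2 replicate 2 or 3 or without the _s_at and _x_at sets. Of 11 hydroxylases and glycosyltransferases, PLOD2, which hydroxylates lysines for cross-links, rose by 0.29 ± 0.06 (adjusted p = 0.011). P3H2, a prolyl hydroxylase of basement membrane collagens, fell by 0.25 ± 0.06 (adjusted p = 0.0202), but its probe sets gave -0.59 and 0.08. Its call was lost without the _s_at and _x_at sets (0.08), and also without control replicate 1 (-0.22), control replicate 3 (-0.24), HS3ST2 replicate 2 (-0.22) or HS3ST2 replicate 3 (-0.26).

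Lists that act outside the cell are read against the same 24.5% of all genes. Of 10 procollagen-processing genes, ADAMTS3, which removes amino-terminal propeptides, fell by 0.58 ± 0.11 log2 (SE, adjusted p = 0.00655). Of 7 cross-linking enzymes, LOXL4, a lysyl oxidase, rose by 0.56 ± 0.05 (adjusted p = 0.000285), through 1 of its 2 probe sets (1.15 against -0.04). PXDN, peroxidasin, which cross-links collagen IV, was at 0.26, 0.22 and 0.18 in control arrays and -0.29, -0.37 and -0.18 in HS3ST2 arrays. It fell by 0.50 ± 0.06 (adjusted p = 0.00103), with both probe sets called. Of 16 fibril-associated proteoglycans and glycoproteins, only FN1, fibronectin, was called, higher by 0.46 ± 0.06 (adjusted p = 0.000846), and that call was lost without the _s_at and _x_at sets (0.20, adjusted p = 0.199). None of 7 further collagen chain genes was called by limma. At an unadjusted p under 0.05, 1 passed, COL26A1 (0.14).

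Collagen receptors were called in 3 of 11 genes, a share near that of all genes. ITGA1, the integrin subunit with a preference for collagen IV, was at -0.48, -0.32 and -0.39 in control arrays and 0.28, 0.36 and 0.39 in HS3ST2 arrays, and rose by 0.74 ± 0.06 log2 (SE, adjusted p = 0.000126). ITGA2, the subunit with a preference for fibrillar collagens, was at 0.14, 0.26 and 0.22 in control arrays and -0.21, -0.23 and -0.15 in HS3ST2 arrays, and fell by 0.40 ± 0.06 (adjusted p = 0.00164). ADGRG1, an adhesion receptor that binds collagen III, rose by 0.51 ± 0.06 (adjusted p = 0.000611), with its probe sets at 0.96 and 0.06. Of 15 collagen-degrading proteases, 3 rose and 4 fell. Higher were MMP13 (2.14 ± 0.11) and MMP1 (1.61 ± 0.07), collagenases that cut fibrillar collagens, and the lysosomal protease CTSS (1.24 ± 0.06), with all 3 of its probe sets called. PEPD, the dipeptidase that frees proline from collagen fragments, fell by 0.34 ± 0.05 (adjusted p = 0.00187). MMP10 fell by 0.65 ± 0.12, CTSL by 0.30 ± 0.06 and CTSK by 0.30 ± 0.07, the last not called without control replicate 2 (-0.26, adjusted p = 0.0518).

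**Figure D5:**
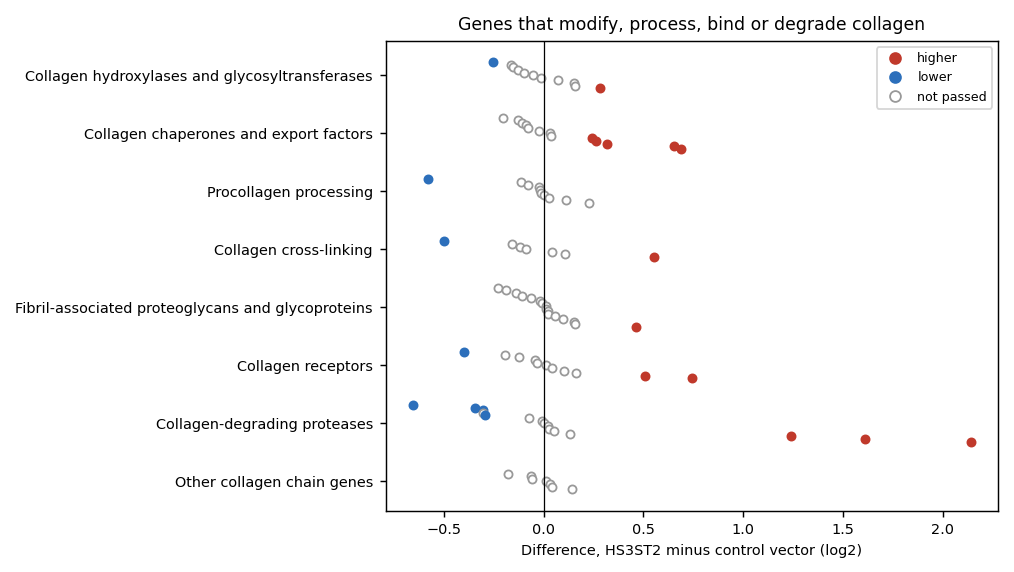
Differences between HS3ST2 and control vector arrays, in log2, for the measured genes of 8 lists around collagen, each point 1 gene. Filled points passed an adjusted p under 0.05, and the points farthest right are MMP13 (2.14), MMP1 (1.61) and CTSS (1.24).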

How the data were processed

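Total RNA of 6 samples was labelled as biotinylated cRNA for Affymetrix arrays, per the labels' protocols. The deposited log2 values were made with RMA, per the submitters' processing notes; their median across arrays was 0 for every probe set, within 4.8e-07, and the sources used here do not give that step. The base of the logarithm was taken as 2, and arrays give no counts, so their number limits the precision. After 62 control probe sets were set aside, 54613 were tested, of which 41091 had 1 gene symbol (1801 had several and 11721 none). Symbols were updated by gene number for 41037. Probe sets of a gene were averaged.

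Groups were compared with limma 3.58.1 (R 4.3.3) without covariates, over probe sets, over genes, and over genes with 11 within-type chain differences added, each with Benjamini-Hochberg adjustment over its whole table. The design text calls the replicates independent without saying whether they were separate transfections, so p-values measure the spread between these arrays. On simulated arrays with the real spread, 20% of genes planted at 0.3 log2, 70% at 0.5 and 94% at 1 were recovered in a table of 19775 genes, beside 5 false calls. Over 54613 single probe sets these shares were 0%, 34% and 86%. Far fewer features were planted than were called in the real tables, so the adjustment was stricter in the simulation. These shares therefore do not measure the sensitivity of the real comparison, where single sets at -0.23 and 0.29 were called. A set with no call may still hold a change of 0.3 or 0.5 log2. The members and lists were chosen with earlier results of these data known. All members are accounted for. Those called, as genes or by a probe set, are given in every array, besides up to 4 called genes of each list with the smallest p and the nearest tested neighbours of called members in RefSeq's gene order. PPIB, MMP10, CTSL and CTSK, which complete their lists, as well as the called marker genes, MIA2, MIA3 and COL26A1, were named after their values were seen. Alternatives were leaving out each array, quantile normalization, median centring, a replicate block, array weights, robust eBayes, leaving out _x_at and _s_at probe sets, the probe set of largest SD, an adjusted p under 0.01 and a difference of at least 0.5 log2. The SD that picks a probe set is taken over all arrays, so this choice favours sets that differ between groups. A filter on dim probe sets needs levels and was not run.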

Additional observations from a re-analysis of the deposited data

How the results depend on the processing

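Of the 13 called collagen genes, 9 kept their direction and call under each of the refits that could be run for them; COL4A2, COL5A1, COL6A1 and COL4A5 did not. After _x_at and _s_at sets were left out, COL4A5 was at 0.0952 and P3H2 at 0.0784, both with the sign turned and no call, 1 collagen gene was higher, 15 collagen probe sets were called, 2 of them higher, and 5 pathway genes were lower. At a difference of at least 0.5 log2, 5 collagen genes were called (1 higher, 4 lower), 16 probe sets (10 lower) and 10 pathway genes (8 higher, 2 lower). At an adjusted p under 0.01, 16 collagen probe sets were called, 10 of them lower. The median collagen difference was -0.12 with the probe set of largest SD, a choice that favours sets differing between groups. It was -0.0627 to -0.0415 over left-out arrays. Between chains, COL4A5 minus COL4A6 turned to 0.17 after that same omission, COL6A1 minus COL6A2 turned to 0.43 and COL1A1 minus COL1A2 passed at -0.61 with the probe set of largest SD. COL4A1 minus COL4A2 (-0.45) and COL6A1 minus COL6A2 (-0.37) miss the 0.5 log2 minimum. COL8A1 minus COL8A2 was not called with array weights (-0.36), with robust eBayes, after that same omission, or at either stricter threshold (all -0.39), and ranged from -0.50 to -0.29 over left-out arrays. COL9A2 minus COL9A3 was not called with the probe set of largest SD (-0.27) or at either stricter threshold (-0.37), and ranged from -0.49 to -0.29 over left-out arrays. Over the same, COL1A1 minus COL1A2 ranged from -0.23 to -0.14 and COL4A3 minus COL4A4 from 0.17 to 0.29. The causes were not tested.

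Arrays with the same replicate number showed no shared deviation (correlations 0.15, 0.04 and -0.08, against -0.195 to 0.18 for unlike numbers). With so few arrays this does not tell whether the numbers mark pairs. With the replicate block, 11 collagen genes, 23 probe sets and 20 pathway genes were called; among single genes COL4A2, COL5A1 and SERPINH1 lost their calls, and no chain difference did.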
